A study of Apis mellifera with 6 samples.

Results

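Worker-only sites are short stretches of the honey bee (Apis mellifera) genome where a nucleosome-free region (NFR) was called in both worker brain libraries and in no queen or drone library. They were found by merging the NFR peaks of 6 ATAC-seq libraries into sites, with an overlap of at least 1 bp, and keeping the sites on the 16 chromosomes (LG1 to LG16) that met this rule. There were 2099 of them among 59043 sites on the chromosomes, or 3.56% of all sites. The same rule gave 358 queen-only sites (0.606%) and 2381 drone-only sites (4.03%). The members were chosen by the peak calls of all 6 lists, so the numbers called, their strength and their distance from other peaks are given here as descriptions, with no test.

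The study profiled central brains of newly eclosed adults of 3 phenotypes, with 2 libraries each: queens (Q) and workers (W), which are diploid females, and drones (D), which are haploid males. Each library was a pool of 5 brains, the optic lobes were taken off in all of them and the hypopharyngeal glands in workers, and all bees came from the same mother queen. Queens were grafted as larvae into queen cups, whereas workers and drones emerged from hive frames. A pool holds all cell types of the central brain, so a site open in few cells and a site weakly open in many cannot be told apart.

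ATAC-seq uses the transposase Tn5, which cuts DNA that is not wrapped around a nucleosome or otherwise covered. Open sites of this kind include promoters, where transcription starts, and enhancers, which lie in introns or between genes and act on a promoter at a distance. Workers and queens can develop from the same genotype under different feeding, and the worker caste carries out brood care, building and foraging.

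The lists held 36529 and 39158 peaks in worker replicates 1 and 2, 30538 and 28026 in queens, and 38341 and 31921 in drones. The 2 worker lists were longer than both queen lists and bracketed the longer drone list. The genome-wide background, which is the number of fragments the caller expected at any position and rises with depth, was 1.06 and 1.04 fragments in workers, 1.47 and 1.24 in queens and 1.42 and 1.08 in drones. Worker libraries were therefore the shallowest by this measure. The peak names of queens and workers carried a shared letter code and those of drones did not. What the code stands for is not given in the sources used here. If it marks a batch, a difference between workers and drones cannot be told apart from one between batches.

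Most sites of worker brains were shared. Of 28251 sites called in both worker lists, 16239 (57.5%) were also called in all 4 other libraries, 4056 in 3 of them, 3543 in 2 and 2314 in 1, while the 2099 worker-only sites made up 7.43%. Sites missing from worker-only status through a single call numbered 714 for queen replicate 1, 490 for queen replicate 2, 809 for drone replicate 1 and 301 for drone replicate 2. A single library thus kept between 301 and 809 sites out of the class. The number of members also moved with the length of the lists, to 966 when each list was cut to its 28026 strongest peaks and to 912 when only the worker peaks had to reach a −log10 q of 5. It was 6517 or 5359 when worker replicate 1 or 2 was left out, so that 1 worker call was enough.

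The members were weak peaks. Fold enrichment, the summit pileup plus 1 over the local background plus 1, had a median of 4.84 in worker replicate 1 and 5.00 in worker replicate 2, a mean of 4.92 ± 0.11 (SD, n = 2). Over all sites called in both worker lists the medians were 6.77 and 7.13. The median summit of a member held 12 fragments in each replicate, against 19 and 20 for all such sites, and the median peak width was 105 and 108 bp against 155 and 161 bp. In at least 1 replicate, 1058 members (50.4%) rested on 10 fragments or fewer, and 109 (5.19%) reached 20 fragments in both. Strength rose with sharing: the median fold in worker replicate 1 was 5.07 for sites called in 1 other list, 5.33 in 2, 5.81 in 3 and 8.54 in all 4.

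**Figure D1:**
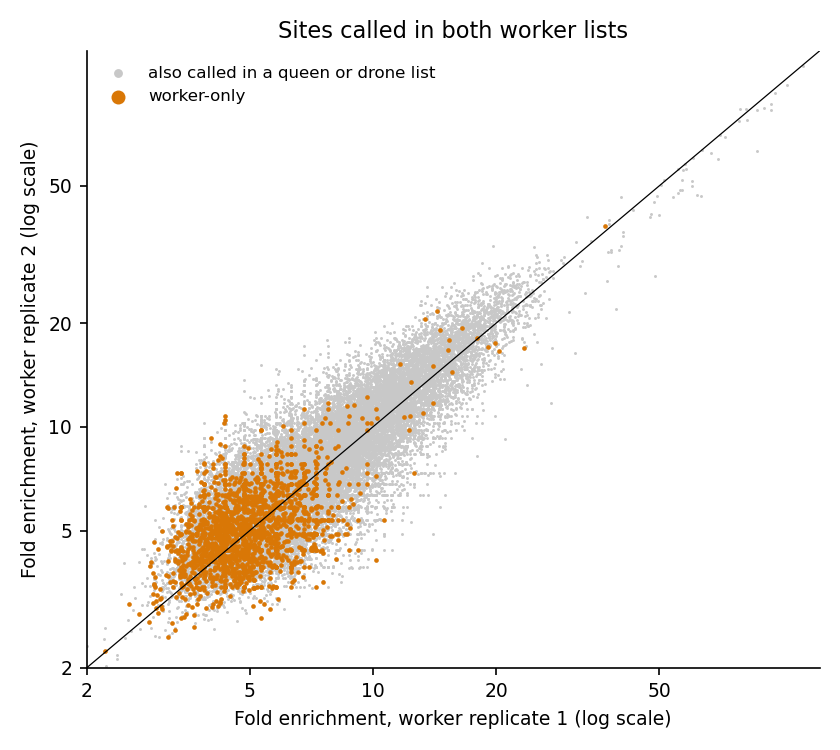
Fold enrichment in worker replicate 1 (x axis) and worker replicate 2 (y axis), both on log scales, for the 28251 sites called in both worker lists, with worker-only sites in orange, sites also called in a queen or drone list in grey and the line of equal values in black. Worker-only sites lie at the low end, with medians of 4.84 and 5.00, and 1 member stands apart near a fold of 37 and 38.

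The share of worker-only sites fell as the weaker of the 2 worker peaks grew stronger. It was 21.5% (594 of 2759) where the lower fold was under 4, 12.2% (1311 of 10749) from 4 to 6 and 2.56% (159 of 6202) from 6 to 8. Above that it was 0.383% (13 of 3397) from 8 to 10, 0.434% (21 of 4835) from 10 to 20 and 0.324% (1 of 309) at 20 or more. Thus 1905 of the 2099 members had a lower fold under 6, and 22 reached 10.

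**Figure D2:**
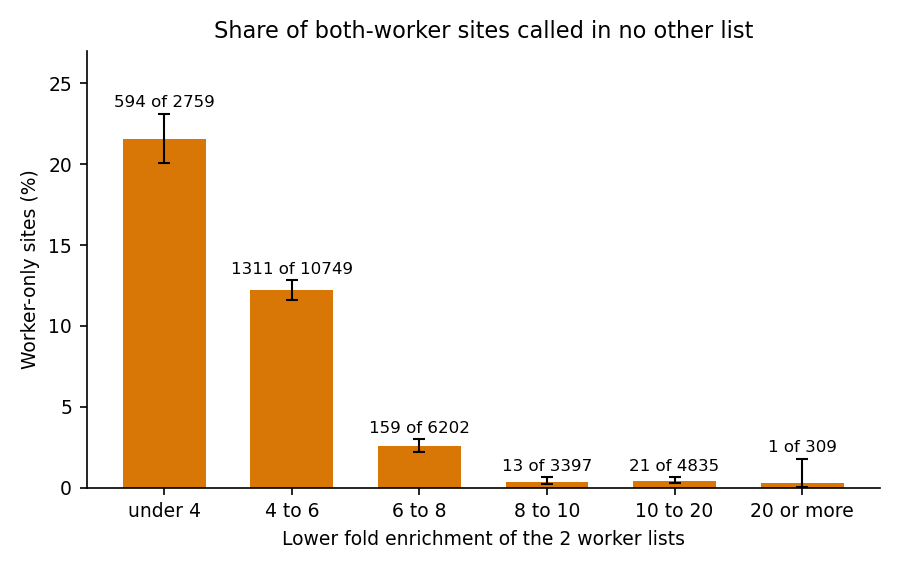
Percentage of the sites called in both worker lists that were called in no other list (y axis), by the lower of the 2 worker fold enrichments (x axis). Bars start at 0, error bars are 95% Wilson intervals, which cover counting error only, and the counts stand above each bar. The share falls from 21.5% under a fold of 4 to under 1% from a fold of 8 on.

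The folds of the 2 replicates were less closely related at the members than at worker sites in general. Spearman's rho of fold between the replicates was 0.413 over the 2099 members and 0.802 over all 28251 sites, a description across sites of the same pair of libraries, and the members span a narrower range of folds. The 2 folds were within 1.5 times of each other at 1895 members (90.3%) and at least 2 times apart at 17. Fold was higher in replicate 2 at 1202 members and in replicate 1 at 897.

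A missing call is not a measured absence, since the lists hold no values outside peaks. Scaling the weaker worker pileup of each member to the background of the other libraries gave a median of 14.1 fragments in queen replicate 1, 11.9 in queen replicate 2, 13.6 in drone replicate 1 and 10.3 in drone replicate 2. The lowest pileup called in those libraries was 6 or 7 fragments. The scaled value reached that floor in all 4 libraries at 2079 members (99.0%), which follows almost entirely from the calling floor of 6 fragments in the worker lists and their low background, and says nothing of the queen and drone signal. It was below 2 times the floor in at least 1 library at 1403 members and at or above it in all 4 at 696 (33.2%).

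The rule has 2 edges, the calling threshold in workers and that in the other libraries. Just inside, the 5 members with the weakest worker peak had a lower −log10 q between 2.02 and 2.07, such as LG2:15060042-15060137 in LOC409192, with folds of 2.86 and 3.95. Just outside were sites with 1 weak peak elsewhere, such as LG14:8845120-8845300, with folds of 4.54 and 5.18 in workers and a queen replicate 1 peak of fold 3.00 at a −log10 q of 2.01. Another was LG1:25420341-25420494, with folds of 7.20 and 6.79 in workers and a drone replicate 1 peak of fold 3.05 at a −log10 q of 2.04. The first were picked for a weak worker peak and the second for a weak peak elsewhere, so their worker folds are not compared.

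The highest member was a narrow peak on LG8 (LG8:10556109-10556177) inside the protein-coding gene LOC100577283, with folds of 36.9 and 38.3 on 90 and 87 fragments. It was the only member at the smallest peak width of both worker lists, 69 bp, and the nearest queen or drone peak lay 6036 bp away. The height of so narrow a peak depends on whether duplicate fragments were removed, which is not given in the sources used here. Scaled to the other libraries, its lower pileup corresponds to between 89.6 and 122.6 fragments. The next highest, LG10:10864162-10864253, lay outside genes, 15668 bp from LOC726470, with folds of 17.9 and 18.1 on 36 fragments in each replicate. These 2 sites were far above the median member in both replicates.

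The other 10 of the 12 members with the highest lower fold ranged in that value from 14.3 to 17.5. They included LG5:11899953-11900096 in LOC408857 (folds 19.9 and 17.5), LG6:14994284-14994369 in LOC724611 (19.1 and 17.05) and LG3:12976768-12976902 in LOC413503 (23.3 and 16.9). LG11:5224829-5225054 in LOC100578332 had folds of 20.3 and 16.6, with a queen peak 111 bp away. LG8:12066652-12066791 in LOC413215 had folds of 16.5 and 19.3, and LG1:20581357-20581439 in LOC551725 had 15.4 and 17.8. The remaining 4 were LG2:14911698-14911791 in LOC726461, LG6:14878477-14878583 outside genes, LG11:14257244-14257512 in LOC107965250 and LOC410261, and LG15:2778257-2778359, which lay 72 bp from LOC552155. Of these 12 sites 9 were in genes, and none of the genes has a name beyond its identifier in the gene table used, so no role is given.

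Strong members were narrow. The 22 members with a lower fold of at least 10 had median peak widths of 98 and 96.5 bp, against 228 and 230 bp for the 5026 sites of that strength called in all 6 libraries. From 6 to 10 the medians were 131.5 and 135 bp for 172 members and 192 and 196 bp for 7189 sites of all 6 libraries. Sites also called in 1 to 3 other lists lay between, at 150.5 and 150 bp for 96 sites of at least 10. From 6 to 10 such sites had medians of 141 and 144 bp (2238 sites), close to the members. The rule drops a site that overlaps any queen or drone peak, which a wider site does more easily. The part of this in the widths was not tested. Smallest-width peaks made up 31 members in replicate 1 and 25 in replicate 2.

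The local background of a member had a median of 1.34 fragments in worker replicate 1 and 1.31 in worker replicate 2. Values over all sites called in both worker lists are not given here, so this is not read as a trait of the members. The local background was at the genome-wide level at 655 members (31.2%) in replicate 1 and 675 (32.2%) in replicate 2. It was more than 3 times that level at 195 and 202. The extreme was LG4:1191417-1191489, outside genes, where 857 and 694 fragments stood on backgrounds of 387 and 309, giving folds of only 2.21 and 2.24. Without the members whose background exceeded 3 times the genome-wide level in a replicate, an alternative chosen after the data were seen, 1878 remained.

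Peaks of other phenotypes were usually near but seldom adjacent. The median gap from a member to the nearest queen or drone peak was 1312 bp. A peak of another phenotype lay within 100 bp of 70 members (3.33%), within 500 bp of 473 (22.5%, 95% Wilson interval 20.8 to 24.4), within 1 kb of 864 (41.2%) and within 5 kb of 1859 (88.6%). The nearest was a drone peak at 1221 members, a queen peak at 843 and both at the same gap at 35. The drone lists held more peaks on the chromosomes, 37750 and 31389 against 29725 and 27298 in queens. These counts are therefore not read as members lying closer to drone than to queen chromatin. Drone-only sites had a median gap of 1261 bp and queen-only sites one of 1086.5 bp, with 23.9% and 32.4% within 500 bp.

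**Figure D3:**
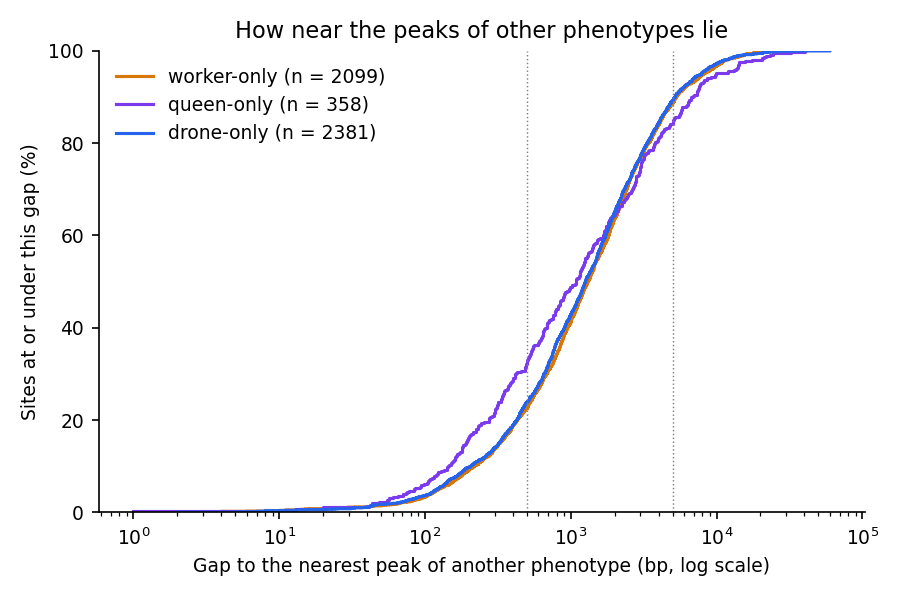
Cumulative percentage of sites (y axis) by the gap to the nearest peak of another phenotype in bp on a log scale (x axis), for worker-only, queen-only and drone-only sites, with dotted lines at 500 bp and 5 kb. The worker-only and drone-only curves run close together, with medians of 1312 and 1261 bp, and 88.6% of worker-only sites lie within 5 kb of another phenotype's peak.

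At 240 members (11.4%) no queen or drone peak lay within 5 kb. Their median folds were 5.33 and 5.38, and 77.9% overlapped a gene. Beside the LG8 and LG10 sites above, the highest were LG4:12020925-12021097, 643 bp from LOC410998 (folds 14.05 and 15.04), and LG10:4568973-4569198, 1805 bp from LOC412101 (8.72 and 10.8). LG11:8143560-8143827 in LOC412215 had folds of 8.24 and 9.78 with 15884 bp to the nearest other peak. The next were LG3:7526748-7527130 between genes (7.75 and 7.83), LG1:16267463-16267610 in LOC410706 (7.68 and 7.57) and LG4:4410284-4410477 in the lncRNA gene LOC113218731 (7.65 and 7.34). The member farthest from any other peak was weak: LG4:6212106-6212311 in LOC100576383, with folds of 3.88 and 4.40 and a gap of 34307 bp.

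By overlap of the whole site, the share of worker-only sites in genes was close to that of all sites. The share at gene ends was lower. Of the members, 1745 (83.1%, 95% interval 81.5 to 84.7) overlapped a gene body, against 80.9% of all sites, 82.0% of sites in all 6 libraries, 82.6% of drone-only sites and 64.2% of queen-only sites. Within 200 bp of either end of a gene lay 156 members (7.43%, 6.39 to 8.63), against 14.2% of all sites and 29.5% of sites in all 6 libraries. Drone-only sites (5.04%) and queen-only sites (5.31%) had low shares as well. The gene table gives no strand, exons or introns, so a gene end is a start or a stop of transcription, and intronic and exonic members were not told apart. Intervals cover counting error only, and sites are not replicates of a phenotype, so the shares were not tested against each other.

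The share at gene ends rises with the strength of a peak, so it was also read at matched strength, a reading chosen after the data were seen. With a lower fold from 4 to 6, 8.09% of 1311 worker-only sites were at a gene end, against 11.1% of 5896 sites also called in 1 to 3 other lists and 14.2% of 3542 sites called in all 6. From 6 to 10 the shares were 13.4% of 172, 19.8% of 2238 and 25.3% of 7189. Under 4 they were 4.21%, 7.19% and 8.71%. The worker-only share was the lowest in each of these strength classes. Sites of more lists were also wider, with medians of 143, 185 and 245 bp from 4 to 6, and a wider site meets a window more easily. The part of width in the shares was not tested. By summit position, not matched for strength, 5.67% of members and 11.9% of all sites were at a gene end.

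**Figure D4:**
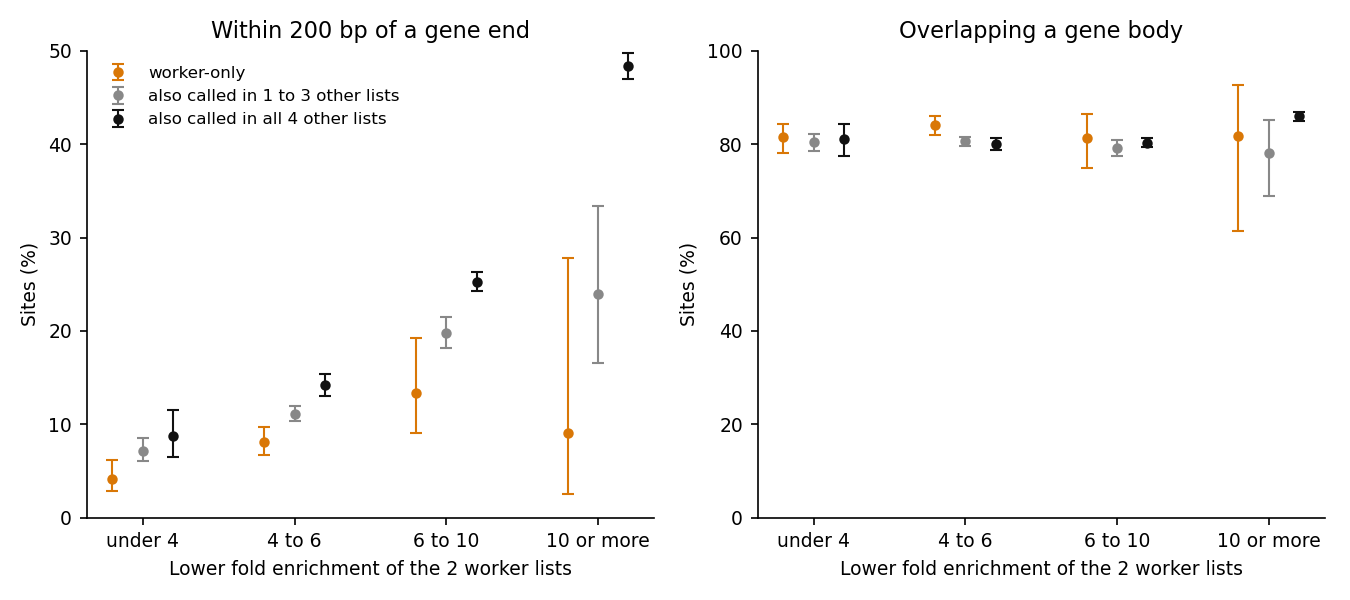
Percentage of sites (y axis) within 200 bp of a gene end (left) and overlapping a gene body (right) by the lower of the 2 worker fold enrichments (x axis), for worker-only sites and sites also called in 1 to 3 or in all 4 other lists. Points are shares and error bars 95% Wilson intervals. At gene ends the worker-only share is the lowest in each class, 8.09% against 11.1% and 14.2% from 4 to 6, whereas gene body shares lie between 78.1% and 85.9%.

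Of the members, 1647 were in protein-coding genes and 194 (9.24%) in lncRNA genes, against 8.56% of all sites in lncRNA genes. In 93 cases the lncRNA gene was the only one there. Outside genes and more than 200 bp from a gene end lay 334 members (15.9%), and 176 were over 5 kb from any gene. Members spread over all 16 chromosomes, between 2.67% of the sites of LG16 and 4.10% of those of LG3.

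Of the 12 strongest members at gene ends, 11 were at an end of a protein-coding gene and 1 at that of a lncRNA gene. They were led by LG15:2778257-2778359 (folds 14.3 and 21.7), 72 bp from LOC552155, with a drone peak 160 bp away. LG5:12348873-12348996 (11.6 and 15.2) lay 36 bp from an end of the lncRNA gene LOC107964433, inside the protein-coding gene LOC408862. LG2:6585634-6586003 at LOC100579058 had folds of 9.90 and 10.3, and LG12:11248757-11248892 at LOC410380 had 7.75 and 11.2. The other 8 of the 12 highest were at LOC724838, LOC412763, LOC411757, LOC100578913, LOC102656143, LOC411410, LOC409598 and LOC412594, with lower folds from 6.43 to 7.62. Small RNA genes held few. Members lay within 200 bp of Mir12 (folds 4.99 and 4.86) and Mir6049 (4.16 and 4.99), and at 6 tRNA genes, where the share of members (0.286%) was close to that of all sites (0.285%).

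Genes were assigned a member that overlapped the body or 200 bp on either side. Of 12255 genes, 1247 (10.2%) held at least 1 worker-only site, 393 at least 2 and 40 at least 5, and 1233 genes held a drone-only site. The genes with a member were long, with a median of 33.5 kb against 4.42 kb for all genes with any site, and had a median of 13 sites against 2. Among them, 522 (41.9%) also held a drone-only site and 116 (9.30%) a queen-only site. Over all 12255 genes these shares were 10.1% (1233) and 1.93% (237). The part of gene length and number of sites in this was not tested. The number of members in a gene is therefore read beside all its sites.

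The genes with most members were LOC410732 on LG1 (12 of 147 sites), LOC413503 on LG3 (10 of 97), LOC725329 on LG7 (10 of 258), LOC411038 on LG4 (9 of 29) and LOC410304 on LG11 (9 of 118). LOC408429 and LOC102655449 on LG13 held 8 of 54 and 8 of 103. The other 5 of the leading 12, LOC552079, LOC412917, LOC551623, LOC408618 and LOC408960, held 7 each among 72 to 124 sites. These genes were between 89.9 and 788.1 kb long. The share of worker-only sites in them ran from 3.88% in LOC725329 to 31.0% in LOC411038, against 3.56% over all sites.

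LOC411038 (LG4:6467101-6557012, 89.9 kb, protein-coding) had the highest share of worker-only sites among genes with at least 15 sites. Worker replicates 1 and 2 called 22 and 20 of its 29 sites, queens 10 and 7, and drones 12 and 8. Over all chromosomes the worker libraries called 59.4% and 64.1% of sites, queens 49.1% and 44.9%, and drones 62.7% and 51.8%. The 9 members lay between 20.7 and 76.9 kb from the lower edge of the gene, and 5 of them followed each other with no other site between (LG4:6499173-6512420), which was the longest such run in the genome. Their folds in worker replicates 1 and 2 were 5.57 and 8.20, 4.24 and 8.25, 6.03 and 6.36, 6.67 and 7.80, and 4.02 and 9.29. Replicate 2 was the higher at each of these 5 sites. Another 3 sites of the gene were called in all 6 libraries.

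A second dense stretch lay outside genes on LG3. Between LOC725792 and LOC102655392 (LG3:7456092-7569797, 113.7 kb) 11 of 25 sites (44.0%) were worker-only. No other stretch between genes held more than 4 members. Worker replicates called 18 and 23 of the 25 sites, queens 10 and 7, and drones 3 and 4, and no site was queen-only or drone-only. By their lower fold the members ranged from LG3:7539118-7539297 (folds 3.64 and 4.68 on 7 and 9 fragments) to LG3:7526748-7527130 (7.75 and 7.83 on 15 each), which was 383 bp wide. The neighbouring gene LOC725792 added 3 members among its 14 sites. Both stretches were singled out after their values were seen, and the counts are a description.

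**Figure D5:**
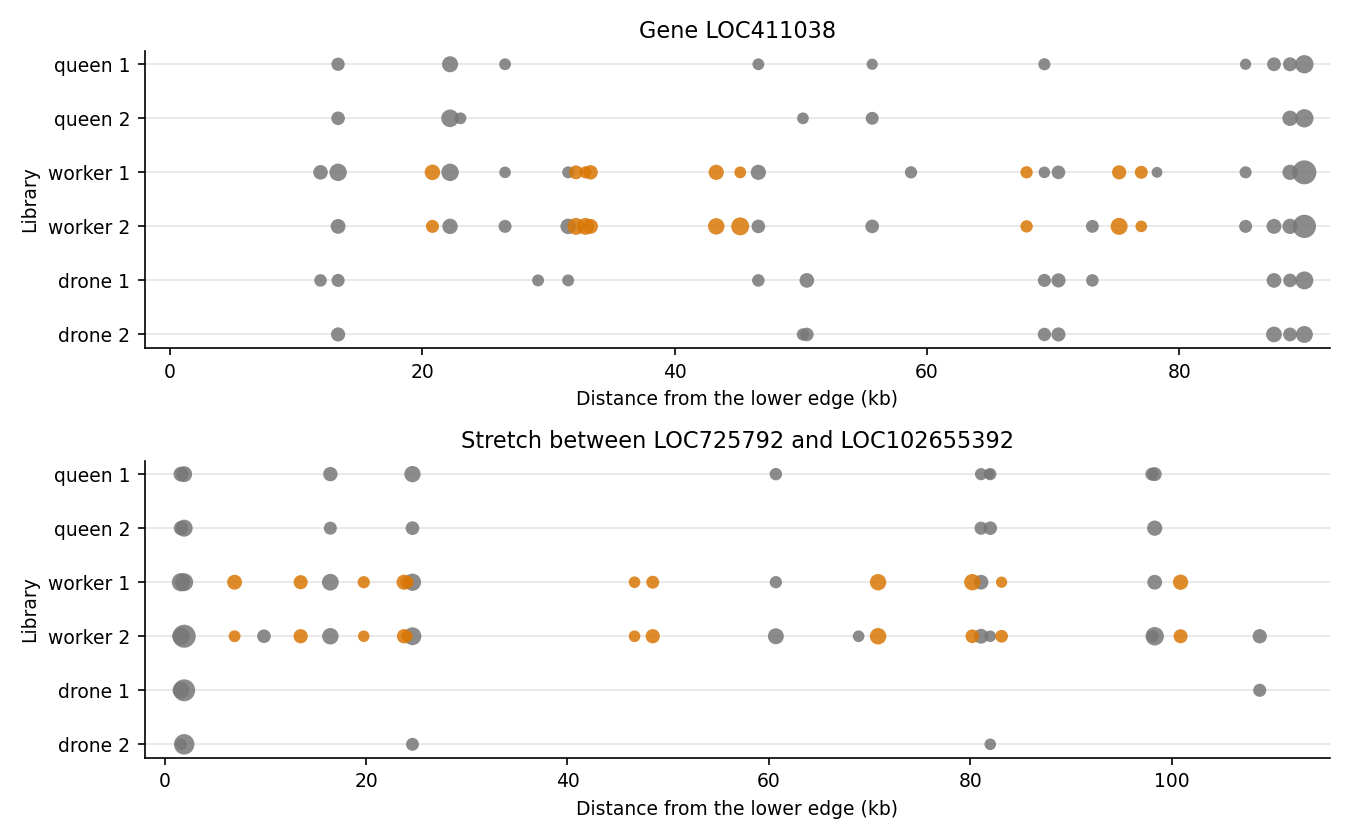
Sites called in each library (y axis) by distance in kb from the lower edge (x axis) of the gene LOC411038 and of the stretch between LOC725792 and LOC102655392, with worker-only sites in orange, other sites in grey and circle area proportional to fold enrichment. In the gene 9 of 29 sites and in the stretch 11 of 25 sites are worker-only, and the drone libraries called 3 and 4 sites in the stretch.

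Elsewhere members were scattered. The median gap from a member to the next member was 26345 bp, and 315 (15.01%) had another within 5 kb. Among runs of neighbouring sites that were all worker-only there were 110 pairs, 6 runs of 3 and the run of 5 in LOC411038. Of 4365 windows of 50 kb with a site, 1543 held a member, 99 held 3 or more and 19 held 4 or more. The fullest was LG4:6500001-6550000 in LOC411038, with 6 of 15 sites.

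Receptors for biogenic amines, which carry dopamine, serotonin, octopamine and tyramine signals in the insect brain, held 8 worker-only sites among 131 (6.11%), in 5 of the 9 genes. Against 3.56% over all sites this was the highest share of the 13 gene lists. The same 131 sites included 9 drone-only and 3 queen-only sites, classes that made up 4.03% and 0.606% of all sites. Each class thus made up more of this list than of all sites, so a higher share was not particular to worker-only sites. These counts are small, and the differences were not tested. Dop3, a dopamine receptor of the D2 type, held 3 of 22 sites as members. These were LG9:10226988-10227075 (folds 3.88 and 5.38), LG9:10232456-10232607 (6.78 and 5.38) and LG9:10323178-10323369 (5.05 and 5.47). At the first pair the nearest drone peak was 8336 bp away and the nearest queen peak 13349 bp.

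The dopamine receptors Dop1 and DopR2 held 1 member each, among 17 and 19 sites, with folds of 6.12 and 4.68 in Dop1 and 6.30 and 6.85 in DopR2. The serotonin receptor 5-HT2alpha held 1 of 4, with folds of 4.36 and 7.83. The tyramine receptor TyrR held 2 of 25, of which LG1:15835930-15836069 (5.33 and 4.89) also lies in the overlapping lncRNA gene Ks-1, known as a nuclear RNA of mushroom body neurons. Oa1, 5-HT1, 5-HT2beta and 5-ht7 held none. All 8 members in these receptors had folds under 8 in both replicates.

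Acetylcholine receptor subunits, which carry fast excitatory transmission in insect brains, held 4 of 224 sites (1.79%). Of these, 3 were in nAChRa3 and 1 in nAChRa7, and 8 of the 10 genes held none. In nAChRa3 the site LG5:12164543-12164644 had folds of 5.32 and 2.78, on 24 and 11 fragments, so the replicates differed there by nearly 2 times. The voltage-gated sodium channel gene Para held 1 of 25 sites (6.30 and 6.82) and the calcium channel gene Cac none of 47. Over all sites the share was 3.56%, which the receptor list lay below, with nAChRa3 above it at 6.38%. Of the 224 sites, 13 were drone-only and 3 queen-only.

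In the list for foraging, learning and the synapse, 4 of 288 sites (1.39%) were worker-only. Camkii, a calcium-dependent kinase with a role in memory, held 3 of 45, with folds of 4.10 and 6.57, 4.52 and 3.82, and 4.85 and 4.14. The neuroligin gene NLG-4, for a synaptic adhesion protein, held 1 of 30 at LG9:9407711-9407929 (7.27 and 6.36). For, the foraging kinase gene, Dscam, Nrx-1, AChE-2, NLG-3 and NLG-5 held none. The list thus lay below the 3.56% over all sites. Drone-only sites numbered 20 of the 288 and queen-only sites 2, against 4.03% and 0.606% over all sites.

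Of the list of hormone receptors and early genes, 3 of 266 sites (1.13%) were worker-only, against 3.56% over all sites. Drone-only sites numbered 10 of the 266, near the 4.03% that this class made up of all sites. Ecr and Usp encode the partners of the ecdysone receptor, and each held 1 member, with folds of 3.83 and 4.13 in Ecr (1 of 64 sites) and 3.77 and 3.24 in Usp (1 of 28). E74, an early gene of the ecdysone response, held 1 of 68 (3.71 and 4.85), while E75, Br-c, Kr-h1 and Mblk-1 held none. The list for juvenile hormone, vitellogenin and insulin held 1 of 28 sites (3.57%), too few to read a share against that of all sites. This member was in the insulin receptor gene InR-2 (4.11 and 3.48), and the vitellogenin gene Vg had 1 site, which was not a member. Mad, a transcription factor of the BMP pathway, held 2 of 113 (1.77%), with folds of 4.12 and 4.25 and of 5.33 and 5.87. Another 11 of its 113 sites were drone-only.

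Cyp314a1, the enzyme that turns ecdysone into its active form 20-hydroxyecdysone, was 1 of 4 genes with at least 2 sites that were all worker-only. Its sites were LG5:13664968-13665169, with folds of 4.93 and 5.40 on 13 fragments in each replicate, and LG5:13666453-13666552, with 3.72 and 4.17 on 10 in each. The nearest queen or drone peak was 2142 and 759 bp away. With another member in LOC408821 they formed a run of 3 over 13894 bp. The other 3 genes were LOC113218731, LOC410495 and LOC725813. A further 81 genes had a single site, which was worker-only, so that 85 of the 1247 genes with a member (6.82%) had no other kind. The 9722 genes with any site had a median of only 2 sites. How many of them had a single site of any kind is not given here, so these counts have no background share. The genes of this paragraph were picked out after their values were seen.

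Per, a core gene of the circadian clock, held 2 members among 5 sites: LG12:10041251-10041369 (folds 4.84 and 5.38) and LG12:10049206-10049342 (4.94 and 4.93). Its 2 sites called in all 6 libraries were stronger, with worker folds of 9.13 and 10.7 and of 10.4 and 14.0. CPR27, a cuticular protein gene, had members at 2 of 3 sites (5.25 and 7.06, and 4.93 and 4.01). The remaining CPR27 site was called in worker replicate 2 and queen replicate 2. These genes, and those of the next paragraph, were also named after their values were seen. Over all sites the share was 3.56%, and naming genes because they held members favours a higher share.

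Several other genes with a symbol held members. The gene osp held 5 of 50, Foxp, a forkhead transcription factor, 3 of 54, Nedd9 3 of 51, and the Hox gene Ubx 2 of 30. Drone-only sites numbered 2 in osp, 4 in Foxp and 1 in Nedd9, with none in Ubx. In Foxp the 3 members had folds of 4.26 and 3.42, 5.30 and 7.91, and 4.25 and 4.61. Obp1, an odorant-binding protein gene, had a single site, which was worker-only (4.33 and 4.11), and it was the only member among 45 sites of 59 chemosensory genes. Fem, a gene of the sex determination cascade, had 1 worker-only site of 2 (5.58 and 5.55), with a queen and a drone peak each 118 bp away. The glutamate receptor gene Nmdar1 had 1 of 2 (4.77 and 3.61). None of these sites reached a fold of 8 in either replicate.

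The lists of tissue markers held 37 sites in all, too few to read a share against the 3.56% over all sites, and none was a member. The 9 royal jelly protein genes (Mrjp1 to Mrjp9), listed here for the hypopharyngeal gland, had 5 sites in all, 3 of them at Mrjp8. Not every gene of this family need mark the gland. The 4 opsin genes had 4 sites and the glial transporter gene Eaat-2 had 1 site. None of the sites in these 3 lists was worker-only. The neuronal genes Syt1 and brp had 27 sites, again with none, and 7 of those 27 were called in all 6 libraries. The 9 genes of neuropeptides and their receptors held 1 member, in SIFR (4.30 and 4.35), among 41 sites.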

How the data were processed

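ATAC-seq was made from pools of 5 brains, and the authors aligned reads to Amel HAv3.1 with BWA 0.7.17, kept fragments of up to 100 bp and called peaks per library with MACS2. The deposited lists give each peak a fold enrichment, a ratio of summit pileup to local background, its p-value and q-value as −log10 (lowest −log10 q just over 2) and a score, which the authors' caller took from the −log10 q. How duplicates were treated is not given in the sources used here. Calling per library makes presence depend on each library's depth. Lists were merged at an overlap of 1 bp with pandas 2.3.3. Pileup and background were solved from fold and Poisson p with SciPy 1.17.1 (at least 99.997% of peaks solved with a residual under 5% of a step), and the solver was tested on simulated data. Shares have 95% Wilson intervals (statsmodels 0.14.6), which cover counting error only. Genes came from the RefSeq gene table of the same assembly, 12255 of 12398 genes placed on the chromosomes. Gaps count the bases between ends.

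Members and gene lists were chosen with earlier results of these data known, and receptor, channel and peptide genes were matched by symbol after the table was seen. Named were the 12 members with the highest lower fold, the 12 genes with most members, the 8 highest with no other peak within 5 kb, list genes with a member, the 12 highest at gene ends (in place of promoters, since the table gives no strand), and 5 on each side of the rule. The LG3 stretch, the shares at matched fold, genes with only worker-only sites and genes outside the lists were added later. No test was run, since the rule used the calls of all 6 lists, and the study's read-count model needs reads outside peaks. Sequences were not used here.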

Additional observations from a re-analysis of the deposited data

How the results depend on the processing

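Cutting every list to its 28026 strongest peaks left 966 worker-only sites in 722 genes, all 966 reaching the calling level when scaled (as the worker calling floor nearly fixes), with a median fold of 5.94 and 9.73% at gene ends. A −log10 q of at least 5 in all lists left 1692, with a median fold of 5.70, 8.75% at gene ends and 20.7% with another phenotype's peak within 500 bp, and in the worker lists only it left 912. Leaving out each library in turn gave 2400 to 6517 sites, 1380 to 2478 genes, 2380 to 6517 reaching the level, median folds of 4.59 to 4.98, 81.9% to 83.1% in genes, 5.68% to 8.18% at gene ends and 21.6% to 26.7% with a near peak. The highest counts came without a worker library (6517 without replicate 1, 5359 without replicate 2), where only 1 worker call was asked for. Windows of 500 and 1000 bp put 12.01% and 18.4% at gene ends, and windows of 250 and 1000 bp gave 11.4% and 41.2% with a near peak. Of alternatives chosen after the data were seen, leaving the drone lists out gave 4453 sites and the summit in place of the site 5.67% at gene ends. In all, 47 of 72 alternatives stayed within 1.5 times (counts), the 95% interval (shares) or 1 SD (fold). No paired analysis was possible because no result comes from a test across samples. Shares at gene starts and sequence composition were not run, since strand and a genome were not used here. No alternative varied depth alone, and the median summit of 12 fragments limits the precision of each fold.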
